A study of Mus musculus with 16 samples.

Results

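Of 556 liver T cells, 294 held at least 1 count of Pdcd1 or Ctla4, and these 294 were compared with the 262 liver cells that held 0 counts of both genes. They belong to a table of 5727 cells measured by single-cell RNA sequencing. All cells are Pmel T cells, CD8+ T cells whose transgenic receptor sees gp100, a pigment cell and melanoma antigen, labelled CD8+Thy1.1+ and taken from C57BL/6 mice aged 16 weeks with melanoma-associated vitiligo, at day 45 after the tumor was removed. Skin, lung, liver and draining lymph node were sampled, and every group shares this receptor, strain, disease and time. The 4 samples labelled for a tissue differ in a lane-like ending and their cells stand in the table under the tissue's name alone, so each tissue is 1 library. The sources used here do not give the number of mice or the way the cells were sorted.

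Pdcd1 encodes PD-1, an inhibitory receptor of activated T cells that binds PD-L1 and PD-L2 and dampens signaling from the T cell receptor and CD28. Ctla4 encodes CTLA-4, which competes with CD28 for CD80 and CD86 and is held largely in intracellular vesicles until the cell is stimulated. Both genes are switched on by T cell receptor signaling and are blocked in melanoma immunotherapy, and both remain on in exhausted T cells and in some memory cells that stay in tissue.

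The members were chosen by measured counts of these same genes, so the levels of Pdcd1 and Ctla4 are a description, and every other gene is reported with counting intervals and no test. Levels are counts of a gene per 1000000 counts of the pooled cells (CPM). A ratio carries the exact 95% interval of a ratio of Poisson counts and a share the Clopper-Pearson interval. These intervals describe counting error, and with a single library from each tissue the spread between mice cannot be seen. The ratio intervals treat counts as independent, so the clumping of a gene's counts in few cells lies outside them. Leaving out a single cell moved the ratios of Stmn1 and Ccl3 outside their intervals.

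The promoters of the genes that define the cells are shown because NFAT, the transcription factor that calcium signaling from the T cell receptor activates, is known to bind such regions. Each line gives the 250 bases before the gene's start in RefSeq (GRCm38.p6), 5′ to 3′ on the gene's strand, with matches to the NFAT core GGAAA on either strand in capitals. The window is chr1:94052554-94052803 on the minus strand for Pdcd1 and chr1:60908775-60909024 on the plus strand for Ctla4.

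Pdcd1: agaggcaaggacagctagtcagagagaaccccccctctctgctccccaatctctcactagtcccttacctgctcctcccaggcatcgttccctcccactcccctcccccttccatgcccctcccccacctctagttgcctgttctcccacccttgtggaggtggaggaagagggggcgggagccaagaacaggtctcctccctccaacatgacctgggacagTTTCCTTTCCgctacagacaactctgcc

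Ctla4: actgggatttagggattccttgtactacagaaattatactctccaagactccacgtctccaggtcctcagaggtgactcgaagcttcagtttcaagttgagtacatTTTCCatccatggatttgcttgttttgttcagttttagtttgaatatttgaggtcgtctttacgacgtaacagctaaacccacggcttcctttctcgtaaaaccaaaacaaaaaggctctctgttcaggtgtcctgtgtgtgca

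The Pdcd1 window held 2 adjoining matches, the first starting at base -28 from the gene's start, and the Ctla4 window held 1, at base -144. The GENCODE annotation places the start of Ctla4 upstream of the RefSeq start, at base 60887000 of chromosome 1, so that window lies inside the gene by that annotation. Neither window held TGANTCA, the AP-1 site. Of 32851 RefSeq promoter windows of the same length, 55.6% held GGAAA and 6.75% held TGANTCA on either strand, and no factor's binding was measured here. The windows also differed in base content, with 60.4% G or C before Pdcd1 and 42.4% before Ctla4.

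Positive cells were a majority of the liver library and a minority elsewhere. They made up 52.9% of the liver library (48.6 to 57.1), 35.2% of skin (32.5 to 38.0), 12.0% of lung (10.7 to 13.4) and 8.98% of lymph node (7.64 to 10.5). With every cell thinned to 1886 counts, which left out 27 liver cells below that depth, the shares were 38.9% in liver (34.8 to 43.2), 31.0% in skin (28.3 to 33.9), 6.93% in lung (5.87 to 8.12) and 6.02% in lymph node (4.87 to 7.35). The order of the tissues was the same at both depths, and at equal depth the lung and lymph node intervals overlapped. Among markers of other cells in the liver library, Lyz2 of macrophages was at 0 counts on both sides and Igkc of B cells was in 0.382% of the negative cells. Cd74, of antigen-presenting cells, was counted in 12.9% of positive and 13.4% of negative cells, and H2-Ab1 in 4.76% and 4.96%.

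**Figure D1:**
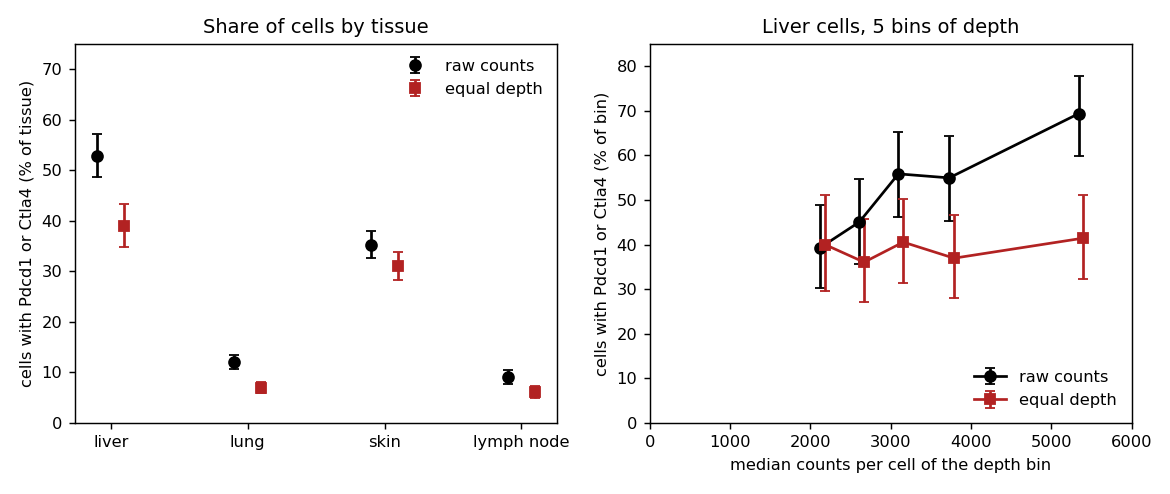
Share of cells with at least 1 count of Pdcd1 or Ctla4, in percent, by tissue (left) and for liver cells in 5 bins of counts per cell (right), with exact 95% intervals as bars, from all counts and from cells thinned to 1886 counts. The raw liver share goes from 39.3% in the shallowest bin to 69.4% in the deepest, and the thinned share lies between 36.0% and 41.4% in every bin.

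Pdcd1 and Ctla4 stood at like levels in the liver library. Pdcd1 was counted in 180 liver cells and Ctla4 in 189, with 105 cells holding Pdcd1 only, 114 holding Ctla4 only and 75 holding both. Over all cells of a tissue, Pdcd1 stood at 154 CPM in liver, 272 in skin, 21.4 in lung and 28.5 in lymph node, and Ctla4 at 154 in liver, 44.0 in skin, 19.1 in lung and 9.05 in lymph node. Pdcd1 was thus highest in the skin library and Ctla4 in the liver library. Cells with Ctla4 were 64.3% of the positive cells in liver (58.5 to 69.8), 49.5% in lung (43.4 to 55.5), 25.3% in lymph node (18.5 to 33.2) and 23.0% in skin (19.1 to 27.2). At these depths the liver interval did not overlap the other 3. At equal depth the share was 56.8% in liver (49.7 to 63.7), 55.6% in lung (47.1 to 64.0), 23.2% in skin (18.8 to 28.1) and 22.2% in lymph node (14.1 to 32.2), so liver and lung were alike and both lay above skin and lymph node. At equal depth, Ctla4 was counted in 22.1% of all liver cells, 7.20% in skin, 3.86% in lung and 1.34% in lymph node, and Pdcd1 in 22.9%, 26.8%, 3.22% and 4.82%.

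Cells with both genes were 25.5% of the positive liver cells (20.6 to 30.9), against 10.7% in skin, 3.23% in lung and 2.74% in lymph node. At equal depth these shares were 15.5% in liver (10.9 to 21.2), 9.52% in skin (6.61 to 13.2), 2.11% in lung and 2.22% in lymph node, and the liver and skin intervals overlapped. If the genes fell independently over liver cells, 61.2 cells would hold both, or 64.2 when this is counted within the depth bins, and 75 did, an odds ratio of 1.64. At equal depth 32 cells held both against 26.8 under independence, and over 529 thinned cells the Spearman correlation of the genes was 0.05. The threshold of the rule is low, since 141 of the 294 cells (48.0%) held a summed count of 1, next to the 262 cells at 0. A further 77 held 2, 44 held 3 and 32 held 4 or more. Cells with a summed count of 2 or more were 52.0% of the positive cells in liver and 49.7% in skin. They were 12.9% in lung and 11.0% in lymph node, so positive cells are not alike between tissues when their ratios are set side by side.

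Depth differed between the sides, and the raw share of positive cells was higher in deeper bins. Positive cells summed to 1101209 counts, with a median of 3266 counts and 1191 genes per cell. Negative cells summed to 826976 counts, with medians of 2870.5 counts and 1099 genes. At equal depth the median number of genes was 811 on the positive and 818 on the negative side. Mitochondrial genes took a median of 2.04% of counts in positive and 1.91% in negative cells, and ribosomal protein genes 25.2% and 24.7%. Scrublet called 13 of the positive cells (4.42%) and 5 of the negative cells (1.91%) doublets. Positive cells shared 1 barcode with lung and none with skin or lymph node.

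Both sides were CD8 T cells by their markers. Cd8b1 was counted in 99.7% of positive and 99.2% of negative cells, and every cell of either side held at least 1 of the 7 markers Cd8a, Cd8b1, Cd3d, Cd3e, Cd3g, Thy1 and Trac. The coreceptor gene Cd8b1 stood at 2771 CPM in positive and 3108 in negative cells, a ratio of 0.89 (0.85 to 0.94), and Cd8a at 728 and 831. Macrophage markers Lyz2, Csf1r, Adgre1 and Marco and the B cell markers Cd79a and Ms4a1 were at 0 counts on both sides. Regulatory T cell markers (4 of 7 in the table) summed to 133 and 135 CPM. Of this, Tnfrsf18, also counted here as a costimulatory gene, gave 118 and 128. The 2 natural killer cell markers, Tyrobp and Fcer1g, summed to 13.6 and 50.8 CPM. A single negative cell held 14 of the 30 counts of Fcer1g on that side, and 1 held 8 of the 12 of Tyrobp. Trdc, the gamma delta receptor gene, stood at 17.3 and 41.1 CPM, with 10 of its 34 negative counts in 1 cell. Dendritic cell markers stood at 137 and 134, B cell markers at 13.6 and 15.7, and endothelial markers at 11.8 and 13.3. Of 9 hepatocyte markers 1 was in the table, Trf, with 1 count on each side. The part of these other cell types in the results was not tested.

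The positive and negative sides were alike for most genes. Among 2101 genes with at least 100 summed counts, 33 were at least 1.5-fold higher in positive cells (1.57%) and 23 at least 1.5-fold lower (1.09%). With cells assigned to a side after thinning, 19 of the 33 and 6 of the 23 were again past the fold. The median log2 ratio was 0.01, and the central 95% of genes lay between -0.50 and 0.52. The genes past the fold included Hilpda, Socs1 and Tnfaip3 on the higher side, and Hspa1a, Txnip and Tbx21 on the lower side. The 15 genes named in each direction are those whose intervals lay farthest from equality, and of these Gmnn, Abcb1b, Senp6 and Fubp1 had fewer than 100 counts.

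**Figure D2:**
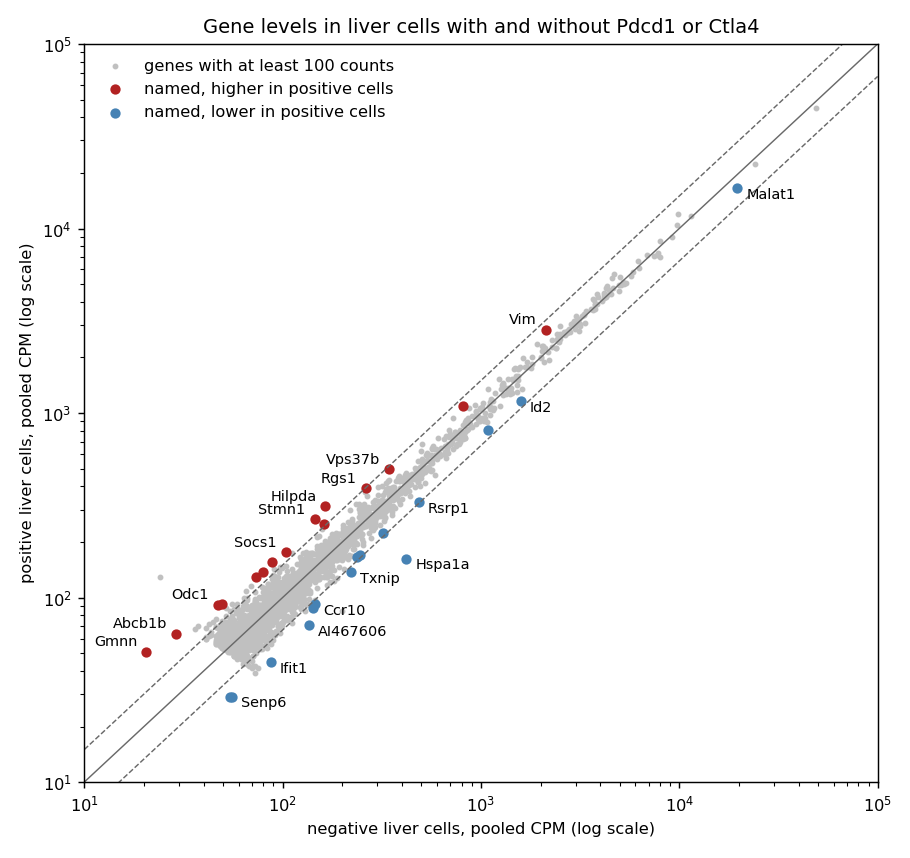
Pooled level of each gene with at least 100 summed counts, and of the 30 named genes, in negative (x axis) and positive (y axis) liver cells, in CPM on log axes, with lines at equality and at 1.5-fold. Most genes lie along the line of equality, with Hilpda and Abcb1b above and Hspa1a and Senp6 below the 1.5-fold lines.

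Tnfaip3, Socs1, Nfkbia and Rgs1 were higher in positive cells. Tnfaip3 encodes A20, an inhibitor of NF-kB signaling, and stood at 252 CPM in positive and 162 in negative cells, a ratio of 1.55 (1.26 to 1.92) that was 1.85 within depth bins. At equal depth it was counted in 41.0% of positive cells (35.2 to 46.9) and 22.4% of negative cells (17.3 to 28.2). Socs1, whose product blocks cytokine signaling through JAK kinases, stood at 176 and 104 CPM, 1.69-fold higher (1.31 to 2.21), with equal-depth shares of 28.5% and 15.8%. Nfkbia, which encodes the NF-kB inhibitor IκBα, was 1.34-fold higher (1.19 to 1.51). Of 12 NF-kB genes listed, 3 reached 100 counts, 2 of them higher, with a median log2 ratio of 0.42. Rgs1, a dampener of G protein signaling from chemokine receptors, stood at 391 and 264 CPM, 1.48-fold higher (1.26 to 1.76).

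Tnfaip3, Socs1 and Rgs1 lay nearer to equality in the other tissues. They were named by their liver values, and such a choice by itself favors larger ratios in liver. Tnfaip3 had ratios of 1.02 in lung (0.87 to 1.19), 1.04 in skin (0.97 to 1.12) and 0.81 in lymph node (0.57 to 1.12), all with upper bounds below the liver's lower bound of 1.26. Socs1 had ratios of 1.08, 1.01 and 0.96, and the skin interval (0.87 to 1.17) lay below the liver interval. Rgs1 had ratios of 1.17 in lung, 1.11 in skin and 1.05 in lymph node. The NF-kB list had a median log2 ratio of 0.22 in skin, with 8 of 10 genes higher, and 0.23 in lymph node, with 8 of 9. In lung its median was -0.04, with 4 of 10 higher. No difference between tissues was tested.

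Hilpda encodes a lipid droplet protein induced by hypoxia, and its interval lay farthest from equality among the 15 genes named as higher. It stood at 313 CPM in positive and 164 in negative liver cells, 1.91-fold higher (1.56 to 2.34), and was counted at equal depth in 34.0% (28.6 to 39.8) and 19.9% (15.1 to 25.5). With cells assigned after thinning the ratio was 1.35. In skin the ratio was 2.16 (1.90 to 2.45), while the lung interval (0.86 to 1.67) and the lymph node interval (0.29 to 1.42) held equality. Hif1a, which encodes the oxygen-regulated transcription factor subunit upstream of Hilpda, was picked out after its value was seen. It stood at 99.9 and 64.1 CPM, 1.56-fold higher (1.11 to 2.21), and its link to Hilpda was not tested here. The 8 glycolysis genes, some of them also targets of that factor, had a median log2 ratio of 0.08, or -0.032 within depth bins, with none past 1.5-fold.

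Odc1, Abcb1b, Mt1 and Serpinb9 were higher too. Odc1, the first enzyme of polyamine synthesis, stood at 91.7 and 47.2 CPM, 1.94-fold higher (1.33 to 2.89). Abcb1b, a drug efflux pump gene, stood at 63.6 and 29.0 CPM, 2.19-fold higher (1.36 to 3.64). Mt1, a metallothionein that binds zinc, stood at 155 and 88.3 CPM, 1.76-fold higher (1.33 to 2.35), or 1.56-fold without the positive cell that held 21 of its counts, and with cells assigned after thinning its log2 ratio was 0.22. Serpinb9, the gene of an inhibitor of granzyme B, stood at 138 and 79.8 CPM, 1.73-fold higher (1.29 to 2.35), and was also higher in skin positive cells, by 3.34-fold (2.15 to 5.29).

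The endosomal sorting gene Vps37b stood at 497 and 346 CPM, 1.44-fold higher (1.24 to 1.66), and was counted in 59.7% and 41.1% of cells at equal depth. Gtf2b, a general transcription factor, and Phax, an exporter of small nuclear RNA, were 1.75-fold (1.29 to 2.40) and 1.87-fold (1.29 to 2.75) higher. Vim, the gene of the intermediate filament vimentin, stood at 2826 and 2128 CPM, a ratio of 1.33 that was 1.14 within depth bins. Ptma, a chromatin-associated protein gene abundant in growing cells, had a ratio of 1.34 (1.22 to 1.48).

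Costimulatory genes did not move as 1 group, while Cd28 and Icos were both higher. Of 8 costimulatory genes with enough counts, 4 were higher and 4 lower, with a median log2 ratio of 0.03 against 0.01 for all genes. CD28, the receptor with which CTLA-4 competes, and ICOS, its inducible relative, were the highest. Cd28 stood at 216 and 152 CPM, 1.42-fold higher (1.14 to 1.77), and Icos at 212 and 150 CPM, 1.42-fold higher (1.14 to 1.78). Icos was also higher in positive cells of skin (1.57) and lung (1.5). Cd27, a costimulatory receptor of the TNF receptor family, stood at 102 and 122 CPM, with an interval that held equality (0.63 to 1.10).

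Downstream signaling genes and the T cell receptor complex differed little. Among 12 genes of PD-1 and CTLA-4 signaling, 6 were higher and 6 lower (median log2 0.02). Ptpn6, which encodes the phosphatase SHP-1, had a ratio of 1.34 (0.98 to 1.83). Of 7 genes of CTLA-4 trafficking, Rab11a of recycling endosomes was 1.45-fold higher (1.09 to 1.95) and the other 6 had ratios from 0.94 to 1.05. The ligand genes were sparse, with Cd274, which encodes PD-L1, at 11 counts in positive and 9 in negative cells. Cd80 was at 29 and 23 counts and Cd86 at 39 and 36.

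Other inhibitory receptors and exhaustion genes showed no shared direction. Only 3 of the 16 in the table reached 100 counts, and none of these was past 1.5-fold. Tox, a transcription factor gene required for exhaustion, had 4 counts in positive and 2 in negative cells, too few for a level. Lag3, an inhibitory receptor that binds MHC class II, had 41 and 38 counts (ratio 0.81, 0.51 to 1.29). Havcr2, which encodes TIM-3, had 47 and 23 counts (1.53, 0.91 to 2.65). Cd160, another inhibitory receptor gene, had 1 and 8 counts, a ratio of 0.094 (0.0021 to 0.70).

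Immediate early genes, which T cell receptor signaling induces within minutes, were slightly higher for 11 of 14, with a median log2 ratio of 0.15 and none past 1.5-fold. Dusp5, a phosphatase gene that limits ERK signaling, stood at 431 and 346 CPM, and the interval of its ratio lay above equality (1.07 to 1.45). Nr4a1, a direct reporter of receptor signaling, stood at 175 and 156 CPM (1.12, 0.89 to 1.42), while its ratio was 1.70 in lung and 2.40 in lymph node. Crem, a cyclic AMP-responsive repressor gene, is not among these 14 genes and was picked out after its value was seen. It stood at 173 and 111 CPM, 1.56-fold higher (1.21 to 2.02). Fos had a ratio of 1.44, with an interval that held equality (0.97 to 2.18).

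**Figure D3:**
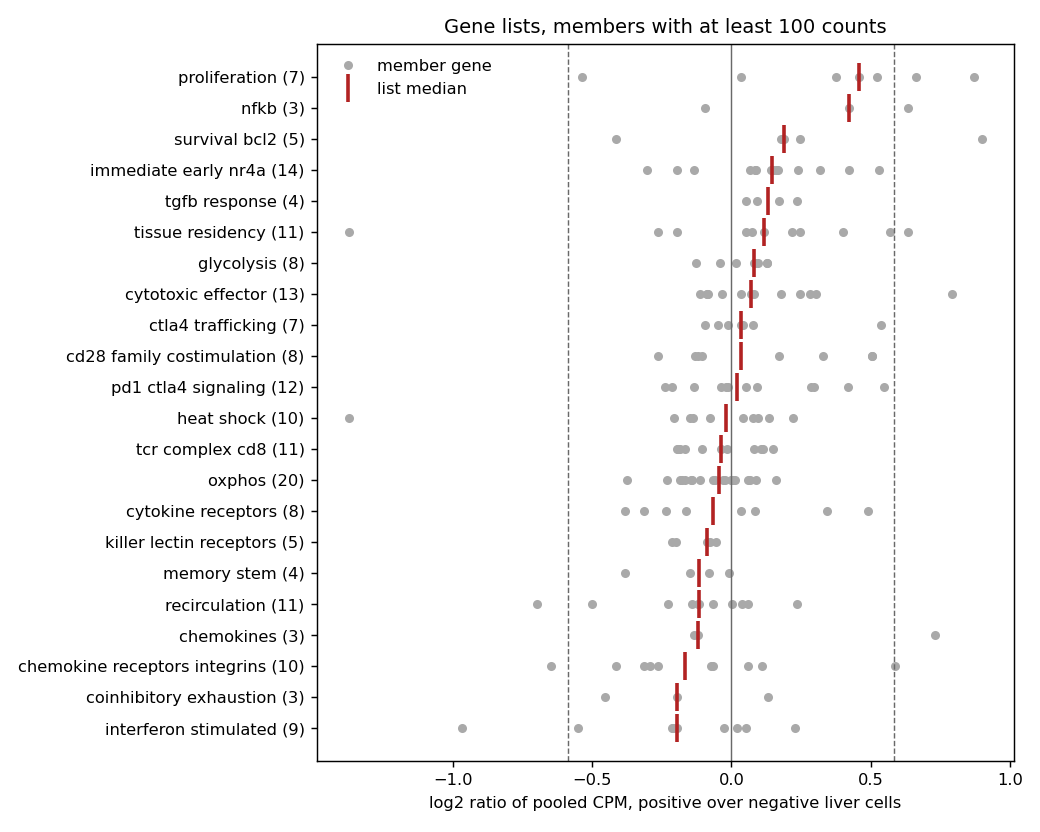
Log2 ratio of pooled CPM, positive over negative liver cells, for each member with at least 100 counts (gray points) of 22 gene lists, with the list's median in red and dashed lines at 1.5-fold. The number of members is in parentheses, and 20 of the 22 medians lie within 0.20 of 0.

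Markers of tissue residency were mixed. Of 11 residency genes, 8 were higher and 3 lower, with a median log2 ratio of 0.12 that was -0.077 with cells assigned after thinning. The higher ones included Rgs1 and Tnfaip3, given above, and Bhlhe40, a transcription factor gene of resident cells, at 320 and 242 CPM (1.32, 1.11 to 1.58). Genes that define residency more narrowly did not follow. Itgae, which encodes CD103, stood at 182 and 175 CPM (1.04, 0.83 to 1.29), and Cd69, which opposes tissue exit, at 90.8 and 104 (0.87, 0.65 to 1.18). Cxcr6, the receptor gene by which T cells patrol liver sinusoids, stood at 890 and 1069 CPM, 1.20-fold lower.

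Genes of recirculation were also mixed, with 7 of 11 lower and a median log2 ratio of -0.11. Klf2, a transcription factor of circulating T cells, was 1.18-fold higher in positive cells (1.10 to 1.27), and its target S1pr1, an exit receptor gene, stood at 145 and 141 CPM (1.03, 0.80 to 1.31). Neither was lower in cells with an inhibitory receptor count. Tbx21 encodes T-bet, a driver of effector differentiation, and stood at 88.1 and 143 CPM, 1.62-fold lower (1.23 to 2.14). Cx3cr1, a marker of terminal effectors, had a ratio of 0.71 (0.50 to 1.01). Il7r, the interleukin-7 receptor gene of long-lived memory cells, stood at 129 and 168 CPM, a ratio of 0.77 (0.60 to 0.98) that was 1.02 within depth bins.

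Id2, which encodes a regulator that supports effector and resident CD8 cells, showed the lower level with high counts. It stood at 1160 CPM in positive and 1586 in negative cells, 1.37-fold lower (1.27 to 1.48). The ratio within depth bins was the same, at 0.73, but with cells assigned after thinning it was 0.80, outside that interval. The other tissues had ratios nearer to 1, at 0.94 in lung, 1.06 in skin and 0.97 in lymph node. Ly6a, the gene of the surface protein Sca-1, stood at 805 and 1083 CPM, 1.35-fold lower (1.22 to 1.48), but was higher in positive cells of lung (1.12, 1.05 to 1.19) and skin (1.29, 1.17 to 1.44). With cells assigned after thinning the liver ratio of Ly6a was 0.83, also outside its interval. Both genes were thus lower in positive cells of liver, and Ly6a had the opposite direction in 2 other libraries.

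Ccr10, the receptor gene for the skin and mucosal chemokines CCL27 and CCL28, was lower in positive cells of all 4 tissues. It stood at 92.6 and 145 CPM in liver, 1.57-fold lower (1.19 to 2.06), and the ratios were 0.60 in lung (0.47 to 0.76), 0.71 in skin (0.50 to 0.99) and 0.56 in lymph node (0.41 to 0.75). Of 10 chemokine receptor and integrin genes, 7 were lower in liver, with a median log2 ratio of -0.17 that was 0.022 with every cell thinned. Cxcr4, the receptor gene for CXCL12, was the one past 1.5-fold in the other direction, at 99.9 and 66.5 CPM (1.5, 1.08 to 2.12). Cxcr3, a receptor gene of effector cells, had a ratio of 0.82 (0.68 to 0.98), and the integrin gene Itgb2 a ratio of 0.80 (0.70 to 0.93).

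The heat shock gene Hspa1a, which encodes the inducible chaperone HSP70, was the lowest of the named genes. It stood at 163 CPM in positive and 421 in negative cells, 2.59-fold lower (2.16 to 3.12). A single negative cell held 54 of its 348 counts there, and without that cell the ratio was 0.46. At equal depth 13.2% of positive (9.51 to 17.7) and 22.4% of negative cells (17.3 to 28.2) held a count. Its near-identical neighbor Hspa1b, with which reads can be shared, had 17 and 32 counts (0.40, 0.21 to 0.74). Of the 10 heat shock genes listed, Hspa1a among them, 5 were higher and 5 lower, with a median log2 ratio of -0.02. Hspa1a had a ratio of 0.74 in lung, 1.02 in skin and 1.48 in lymph node.

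Txnip, Ifit1 and Rsrp1 were also lower in positive cells. Txnip, a glucose-responsive inhibitor of thioredoxin, stood at 137 and 222 CPM, 1.62-fold lower (1.30 to 2.03), and was also lower in lung (0.73) and skin (0.59). Ifit1, an interferon-induced RNA-binding protein gene, stood at 44.5 and 87.1 CPM, 1.96-fold lower (1.34 to 2.87), but was 3.26-fold higher in skin positive cells (1.97 to 5.55). With cells assigned after thinning the log2 ratio of Ifit1 in liver was -0.29. Of 9 interferon stimulated genes 6 were lower, with a median log2 ratio of -0.20 that was 0.011 with cells assigned after thinning. Ifi47, an interferon-inducible GTPase gene, stood at 128 and 187 CPM (0.68, 0.54 to 0.86). Rsrp1, an arginine and serine rich protein gene, stood at 328 and 485 CPM, 1.48-fold lower (1.28 to 1.71).

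The remaining named genes were lower by smaller or less precise amounts. Gimap3, a GTPase gene of lymphocyte survival, was 1.44-fold lower (1.17 to 1.76). Tbc1d10c, an inhibitor gene of Ras and calcineurin, was 1.43-fold lower (1.20 to 1.71). Eif4a2, a translation initiation helicase gene, was 1.43-fold lower (1.16 to 1.75). With cells assigned after thinning the ratio was 0.93 for Gimap3 and 0.91 for Eif4a2, both outside their intervals. Senp6 and Fubp1, at 32 positive counts each, were 1.91-fold (1.19 to 3.11) and 1.87-fold (1.16 to 3.04) lower. AI467606 stood at 70.8 and 135 CPM. Malat1, a nuclear long noncoding RNA, stood at 16480 and 19582 CPM, but its ratio of 0.84 was 1.0 within depth bins. It was also lower in positive cells of lung (0.75, 0.74 to 0.76), skin (0.82, 0.81 to 0.83) and lymph node (0.92, 0.91 to 0.94). Ratios within depth bins were made for liver only, and the part of depth in these differences was not tested. Gm42418 was 2.36-fold lower (1.82 to 3.08) and was picked out after its value was seen.

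**Figure D4:**
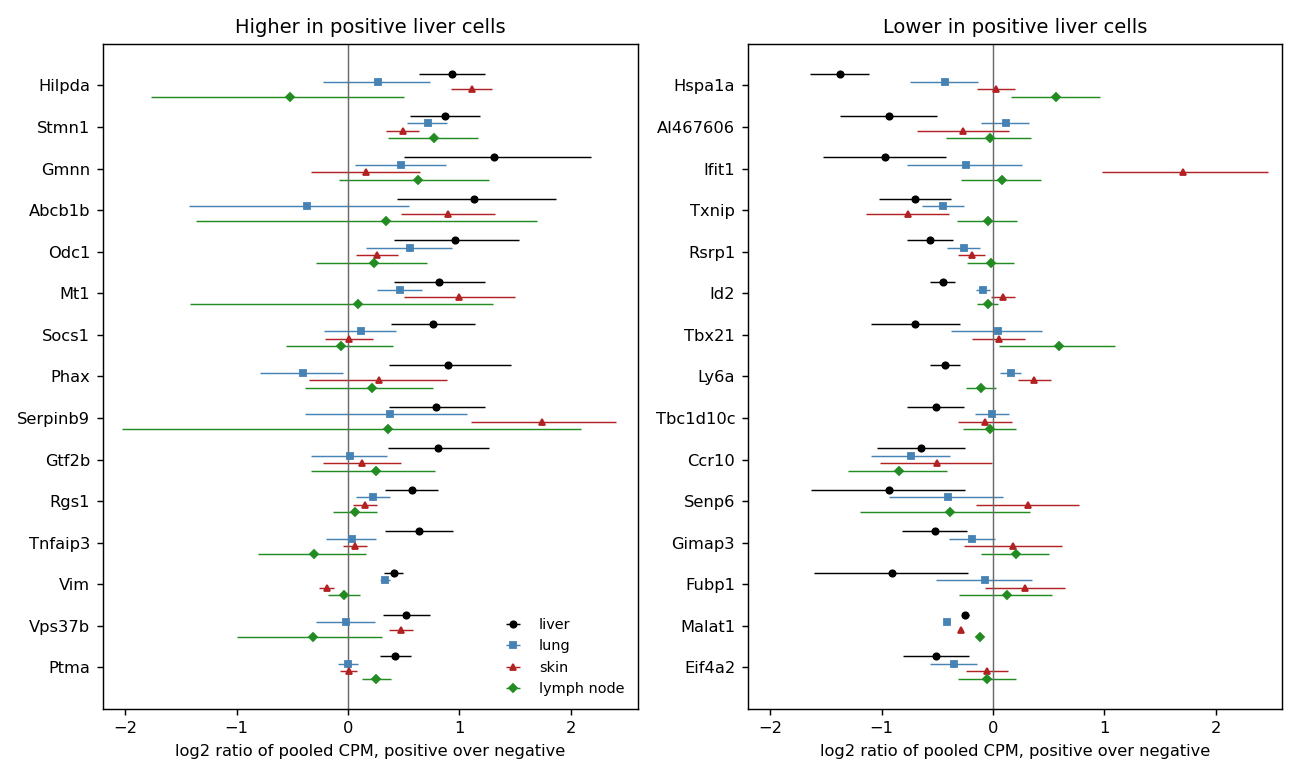
Log2 ratio of pooled CPM, positive over negative cells, for the 30 named genes in each of the 4 tissues, with exact 95% intervals as bars, 1 library per tissue. Ccr10 and Malat1 lie below 0 in all 4 tissues with intervals that do not reach 0. Txnip, Rsrp1, Tbc1d10c and Eif4a2 also lie below 0 in all 4, with some intervals that hold 0. Id2 and Ly6a lie farther below 0 in liver than in any other tissue. The genes were named by their liver values, which favors larger differences in liver.

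Cytotoxic genes were close to equal. Of 13, 8 were higher and 5 lower, with a median log2 ratio of 0.07. Gzmb, the gene of granzyme B, stood at 1784 and 1576 CPM (1.13, 1.06 to 1.22), and Gzma at 11964 and 9830 CPM, a ratio of 1.22 that was 0.97 within depth bins. Ifng stood at 370 and 392 CPM (0.94, 0.81 to 1.09). In skin the ratios of Gzma and Gzmb were 3.54 and 2.57. Ccl3, a chemokine gene of activated T cells, stood at 76.3 and 46.0 CPM, but 1 positive cell held 44 of its 84 counts there and the ratio without that cell was 0.79. Ccl5, the most abundant of the chemokines, had a ratio of 0.92. All 5 killer lectin receptor genes were lower, by small amounts (median log2 -0.09), with Klrk1, which encodes NKG2D, at 0.87 (0.79 to 0.96).

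The other lists lay near equality. The 20 genes of oxidative phosphorylation had a median log2 ratio of -0.05, with 13 lower and none past 1.5-fold. All 4 genes of the TGF-beta response were higher, with a median of 0.13, and Smad7, an inhibitor gene of that pathway, had a ratio of 1.13 (0.77 to 1.66). The 11 genes of the T cell receptor complex and CD8 had a median of -0.04, and the 4 memory and stemness genes were all lower with a median of -0.11, or 0.022 within depth bins. Of 8 cytokine receptor genes 4 were higher, among them Ifngr1 of the interferon gamma receptor (1.27, 1.09 to 1.48). Of 5 survival genes 4 were higher, with Bak1, a gene of mitochondrial cell death, at 69.9 and 37.5 CPM (1.87, 1.21 to 2.93). Of 8 calcineurin and NFAT genes only Ppp3ca, a catalytic subunit gene of calcineurin, reached 100 counts, with a ratio of 0.85 (0.65 to 1.11).

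The S phase genes of the cell cycle were higher in positive cells, and the summed genes of G2 and M phase were level. Cycling cells, those with a count of Mki67, Top2a or Birc5, were 30 of the positive cells (10.2%) and 19 of the negative cells (7.25%). Of 7 proliferation genes with at least 100 counts, 6 were higher, with a median log2 ratio of 0.46 that was -0.021 within depth bins. The list was divided by phase after its values were seen. The 8 genes of S phase summed to 430 CPM in positive and 225 in negative cells, a ratio of 1.91 (1.61 to 2.28) that was 1.52 within depth bins, and all 8 were higher. The 10 genes of G2 and M phase summed to 383 and 387 CPM, a ratio of 0.99 (0.85 to 1.15), or 0.61 within depth bins, with 6 of the 10 higher. Cells with at least 3 such counts were 8.16% of positive and 3.44% of negative cells for S phase, and 6.12% and 4.20% for G2 and M phase. In skin the ratios were 1.19 for S phase and 0.90 for G2 and M phase. In lung and lymph node both sets were higher in positive cells, with ratios of 1.48 and 1.59 for S phase and 1.69 and 1.94 for G2 and M phase.

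A handful of cells carry these sums, with 5 liver cells holding 22.9% of the S phase counts and 40.6% of the G2 and M counts. Rrm2, a subunit gene of the enzyme that makes deoxynucleotides, had 77 and 17 counts (3.40, 1.99 to 6.14), and Mcm3, of the replicative helicase, had 40 and 10 (3.00, 1.48 to 6.74). Gmnn, the gene of the replication inhibitor geminin, stood at 50.9 and 20.6 CPM, 2.47-fold higher (1.42 to 4.54). Among genes of G2 and M phase, Ccna2, which encodes cyclin A2, had 31 and 8 counts (2.91, 1.31 to 7.33), Cenpa, of the centromere, had 39 and 56 counts (0.52, 0.34 to 0.80), and Ccnb1, which encodes the mitotic cyclin B1, had 4 and 14 (0.21, 0.051 to 0.68).

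Stmn1, a microtubule regulator gene of dividing cells, stood at 265 and 145 CPM, a ratio of 1.83 (1.47 to 2.28). The value rested on few cells. A single negative cell held 34 counts, and without it the ratio rose to 2.53. The ratio within depth bins was 1.10, and without the cycling cells the log2 ratio was -0.068. The Riken gene 2810417H13Rik, also called Pclaf, encodes a partner of the replication clamp PCNA and was picked out after its value was seen. It had 142 counts in positive and 20 in negative cells, 5.33-fold higher (3.33 to 8.99), and 1 positive cell held 28 of them. The ratio was 4.32 without that cell and 3.15 within depth bins. Doublets were also more frequent among positive cells, as given above, and their part in these values was not tested beyond leaving them out.

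The 3 kinds of positive cells were set against the cells with neither gene. All 30 genes were named by the pooled positive cells over these same cells with neither gene. A shared direction in the 3 kinds, which are parts of that pool, is thus largely built in. By pooled level, the 15 genes named as higher lay above cells with neither in each kind. The margin was almost nothing for Gmnn and Rgs1 with Pdcd1 only, and small for Mt1 with Ctla4 only. Rgs1 stood at 264 CPM in cells with neither gene, 265 with Pdcd1 only, 461 with Ctla4 only and 458 with both. Without thinning, Rgs1 was counted in 35.9% of cells with neither, 49.5% with Pdcd1 only, 51.8% with Ctla4 only and 53.3% with both. By share of cells, Pdcd1 only was thus near the other positive kinds. Gmnn stood at 20.6, 20.6, 69.4 and 64.5 CPM in the same order. Mt1 had the other pattern, at 88.3 CPM with neither, 186 with Pdcd1 only, 94.2 with Ctla4 only and 197 with both. Hspa1a was lowest in cells with both, at 100 CPM against 421 with neither, 160 with Pdcd1 only and 213 with Ctla4 only. Socs1 and Vps37b were alike in all 3 kinds, at 180, 179 and 168 CPM and at 492, 503 and 494 CPM.

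**Figure D5:**
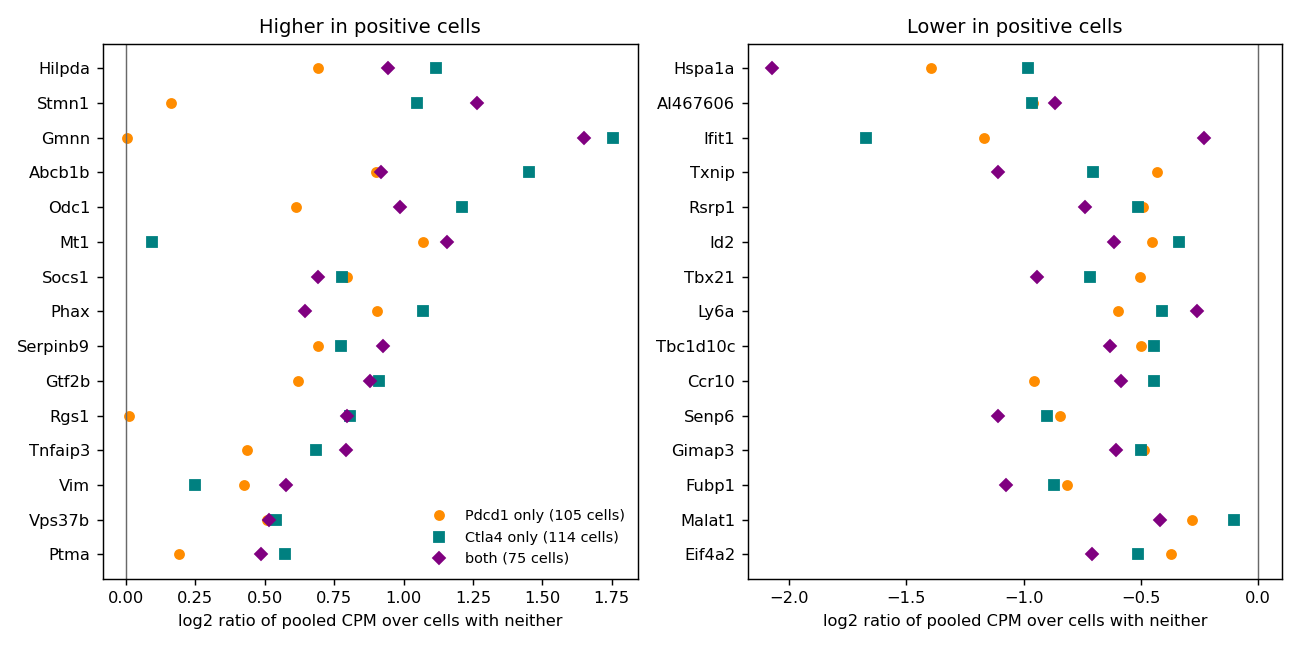
Log2 ratio of pooled CPM over the 262 cells with neither gene, for cells with Pdcd1 only, Ctla4 only and both, for the 30 named genes. Rgs1 and Gmnn lie near 0 in cells with Pdcd1 only and Mt1 lies near 0 in cells with Ctla4 only, while all 15 genes on the right lie below 0 in all 3 kinds. The genes were named by the pooled ratio of these same cells, so a shared direction in the 3 kinds is largely built in.

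Cells with Pdcd1 only and cells with Ctla4 only had similar depth, with medians of 3185 and 3132 counts. Among 946 genes with at least 100 counts over both kinds, 6 were past 1.5-fold higher with Pdcd1 only (0.634%) and 10 with Ctla4 only (1.06%). Cd69 and Ccl4 had higher pooled levels with Ctla4 only. Cd69 stood at 119 CPM with Ctla4 only and 51.5 with Pdcd1 only, 2.31-fold higher (1.34 to 4.11), and the inflammatory chemokine gene Ccl4 at 1173 and 729 CPM, 1.61-fold higher (1.39 to 1.87). A single cell with Ctla4 only held 108 of the Ccl4 counts, and without it the ratio was 1.3. Rgs1 and Rgs2, both regulators of G protein signaling, were 1.74-fold (1.36 to 2.23) and 1.68-fold (1.35 to 2.09) higher with Ctla4 only. Without the cell with most counts, 19 for each gene, the ratios were 1.58 and 1.57. Rgs1 was counted in 51.8% of cells with Ctla4 only and 49.5% with Pdcd1 only, and Rgs2 in 68.4% and 56.2%. Ubl3, a ubiquitin-like protein gene, was 2.32-fold higher with Ctla4 only (1.46 to 3.77). Higher with Pdcd1 only were Gna15, a G protein subunit gene, at 283 and 146 CPM (1.94-fold, 1.40 to 2.71), Mt1, 1.97-fold (1.31 to 3.00), and Agpat4, an enzyme gene of phospholipid synthesis, 2.32-fold (1.28 to 4.39). Cd69, Ubl3 and Agpat4 had 68, 92 and 55 counts over both kinds, and are not among the 946 genes.

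Across single cells no gene followed the pair closely. Over 529 liver cells thinned to equal depth and 1979 genes, the Spearman correlations with the summed count of Pdcd1 and Ctla4 were highest for H3f3b, which encodes the replication-independent histone H3.3, at 0.23. Then came the mitochondrial gene mt-Atp6 at 0.20, Tnfaip3 at 0.18, Vps37b at 0.17 and Icos at 0.16. The lowest were Id2 at -0.17, Rac2, a GTPase gene of blood cells, at -0.16, and Myl12b, a myosin light chain gene, at -0.15. The cells share 1 library and 1 depth, and these sparse correlations are weak.

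In GRCm38, the assembly also called mm10, GENCODE places Pdcd1 on chromosome 1 from 94038305 to 94052553 and Ctla4 on the same chromosome from 60887000 to 60915832. Tnfaip3 lies on chromosome 10 from 19000910 to 19015657, Hilpda on chromosome 6 from 29272488 to 29275446, Id2 on chromosome 12 from 25093799 to 25097140 and Hspa1a on chromosome 17 from 34969190 to 34972156. All 6 are protein-coding genes.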

How the data were processed

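Counts were deposited by the authors as whole numbers in 1 table of 9223 genes by 5727 cells, and its column names give the tissue. Per the submitters' processing notes, Bowtie and RSEM were used with mm10, and no versions are given. The sources used here do not say whether unique molecules were counted or how genes and cells were filtered. No cell was left out, and the lowest total was 753 counts.

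Liver cells were divided by the rule of at least 1 count of Pdcd1 or Ctla4. Counts were summed per side and divided by the side's total (CPM). No test was made, because a tissue is 1 library. A gene was called past 1.5-fold where its summed count was at least 100. Depth was handled by thinning each cell to 1886 counts (the 10th percentile of all cells) and by a Mantel-Haenszel ratio over 5 depth bins. Doublets were called with Scrublet in scanpy 1.11.5 at an expected rate of 0.05 and kept. The ratio procedure was run on simulated Poisson counts without added spread between cells. That run cannot show how the intervals behave with counts clumped in few cells. Numpy 2.4.6, scipy 1.17.1, pandas 2.3.3 and Python 3.11.15 were used.

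The members, the 24 gene lists and the markers were chosen with earlier results of these data known. Genes were named, 15 each way, by the distance of the nearer interval bound from equality, among those with 50 CPM or more and present in 10% of cells of the higher side. The naming skipped predicted genes and those of ribosomes, mitochondria, receptor segments and immunoglobulins. List members could also be named, as could the 5 genes with the highest Spearman correlation. The 8 genes each way between Pdcd1 only and Ctla4 only, of which some are printed, and the lowest correlations were chosen after the data were seen. So were Hif1a, Crem, Gm42418 and 2810417H13Rik. Promoter sequences came from RefSeq and positions from GENCODE.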

Additional observations from a re-analysis of the deposited data

Results flagged for a closer look

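Tbx21, the gene of the transcription factor T-bet, had opposite directions in the liver and lymph node libraries. In liver it was lower in cells with Pdcd1 or Ctla4, with a ratio of 0.62. In lymph node it was higher, with a ratio of 1.51 (1.04 to 2.14), at 84.8 CPM in positive and 56.2 CPM in negative cells, from 37 and 230 counts. The difference between the tissues was not tested, since each is 1 library.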

How the results depend on the processing

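The share of liver cells with Pdcd1 or Ctla4 was 27.5% with a summed count of at least 2 and 38.9% with membership decided after thinning, against 52.9% without thinning. With membership decided after thinning the negative cells' median was 3172 counts. Counts of genes past the fold depended on the settings. With every cell thinned there were 71 higher and 66 lower among 2101 genes. The number of genes entered changed with the summed count required, so these counts do not share a base. With at least 10 there were 855 and 983 among 7524 genes. With at least 50 there were 138 and 128 among 3547, and with at least 200 there were 10 and 7 among 1154. A lower fold limit gave 179 and 162, and a 2-fold limit 1 and 2, both among 2101 genes. Without cycling cells 14 of 1849 genes were past the 1.5-fold limit on the lower side. Ratios within depth bins kept 24 of the 33 higher and 15 of the 23 lower genes, membership after thinning 19 and 6, and a count of at least 2 kept 17 and 6, with 0 genes turned to the opposite side. Over 11 alternatives of each of the 30 named genes, 302 of 330 values lay within the gene's own interval. Some alternatives could move the values little, such as scaling by the median ratio, which kept all 30 within. With membership decided after thinning 20 of the 30 lay within and 10 outside, among them Hilpda, Hspa1a, Id2 and Ly6a. Stmn1 turned to a log2 ratio of -0.068 without cycling cells, and Malat1 changed sign within depth bins, to a ratio of 1.0. The cause was not tested. No replicate could be left out and no paired analysis was possible because each tissue is 1 library.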
